A study of Mus musculus with 4 samples.

Results

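The regions described here are stretches of open chromatin that were called in every library of the series and that lie at an end of exactly 1 protein-coding gene. They were selected on measured values. A region had to hold a peak in all 4 libraries, to have its midpoint within 1 kb of the start or end of exactly 1 protein-coding gene, and to be under 2000 bp wide after the overlapping peaks of the libraries were joined. This rule found 7823 regions at 7762 genes. They make up 41.4% of the 18904 regions with a peak in every library and 19.6% of all 39843 regions.

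The series profiled open chromatin of the embryonic mouse palate with ATAC-seq, an assay in which a transposase cuts accessible DNA and leaves sequencing adapters behind. GFP-positive mesenchymal cells were taken by FACS at E14.5. The mutant group holds 2 libraries of Shox2Cre/-;Nkx2.5F/F;R26RmTmG embryos, and the control group holds 2 libraries of Shox2Cre/+;Nkx2.5F/F;R26RmTmG embryos, which the titles call WT. Shox2 is a homeobox gene of the anterior palate, and the comparison asks what changes in chromatin when the remaining intact Shox2 allele is missing. The controls are not wild type. They carry the Cre allele and keep 1 intact Shox2 allele, and both groups carry a floxed Nkx2-5 on both chromosomes and the mTmG reporter, which marks cells with green fluorescence after Cre has acted. Only cells in which the Shox2-driven Cre had acted could be sorted, and 50000 cells were pooled per group. The same Cre also targets the floxed Nkx2-5 in both groups, and the extent of its excision was not tested. Whether the 2 libraries of a genotype go back to separate embryo pools is not stated in the labels, so the spread between them may be technical.

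A promoter is the stretch of DNA at the start of a gene on which transcription factors and RNA polymerase assemble, and it is usually kept free of nucleosomes when the gene can be transcribed. Many mammalian promoters lie in CpG islands, which are rich in the dinucleotide CG and are open in most cell types. Common elements close to the start are the CCAAT box, bound by the trimeric factor NF-Y, the GC box, bound by Sp and KLF factors, and the core site of ETS factors. The TATA box, by contrast, marks a smaller set of promoters, many of them of genes with tissue-restricted or inducible expression.

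The strength of a region was read from the authors' own peak values, as the percentile of its strongest peak by −log10 p within the list of a library, where 100 is the strongest peak of that list. A region was described by its lowest percentile over the 4 libraries, and the gene start and strand came from a RefSeq table. Of the 10 strongest regions, 8 lay at a start for which this table gave the promoter. The 200 bases before the gene start of these 8 genes are shown because they carry the pattern that the sequence results turn on. They are written 5′ to 3′ on the strand of the gene, in GRCm38.p6, the build also called mm10. Capitals mark the NF-Y box CCAAT and, on the other strand, ATTGG, the GC box GGGCGG, the ETS core CGGAAG, the E-box CACGTG, the AP-1 site TGANTCA and their reverse complements.
Qdpr (chr5:45450230-45450429, minus strand): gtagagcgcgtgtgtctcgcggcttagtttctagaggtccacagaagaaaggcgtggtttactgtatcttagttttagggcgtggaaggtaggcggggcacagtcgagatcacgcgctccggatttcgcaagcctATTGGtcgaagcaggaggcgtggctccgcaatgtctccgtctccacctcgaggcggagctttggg
Evi5l (chr8:4166367-4166566, plus strand): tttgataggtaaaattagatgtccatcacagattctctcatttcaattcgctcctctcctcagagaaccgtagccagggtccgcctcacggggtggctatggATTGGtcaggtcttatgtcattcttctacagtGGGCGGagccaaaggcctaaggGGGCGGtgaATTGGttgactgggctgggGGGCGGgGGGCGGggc
Msmo1 (chr8:64733579-64733778, minus strand): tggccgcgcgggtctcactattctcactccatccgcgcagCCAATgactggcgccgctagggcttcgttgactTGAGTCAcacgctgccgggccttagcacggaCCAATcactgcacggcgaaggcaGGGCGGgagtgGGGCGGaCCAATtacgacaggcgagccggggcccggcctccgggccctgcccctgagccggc
Arrdc4 (chr7:68749239-68749438, minus strand): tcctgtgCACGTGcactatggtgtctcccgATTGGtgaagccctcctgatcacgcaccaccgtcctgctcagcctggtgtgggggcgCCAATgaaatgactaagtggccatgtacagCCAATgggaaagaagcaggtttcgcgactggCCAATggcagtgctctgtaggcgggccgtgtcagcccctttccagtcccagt
Eif2ak3 (chr6:70844315-70844514, plus strand): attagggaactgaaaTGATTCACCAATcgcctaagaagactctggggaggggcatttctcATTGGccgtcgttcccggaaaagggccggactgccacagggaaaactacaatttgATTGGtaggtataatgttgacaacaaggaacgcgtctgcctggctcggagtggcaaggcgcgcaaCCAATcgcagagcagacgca
Pja2 (chr17:64331884-64332083, minus strand): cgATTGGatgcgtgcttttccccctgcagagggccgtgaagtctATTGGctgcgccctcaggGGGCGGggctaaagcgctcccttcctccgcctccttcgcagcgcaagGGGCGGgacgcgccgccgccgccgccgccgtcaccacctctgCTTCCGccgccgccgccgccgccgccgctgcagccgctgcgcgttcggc
Stt3a (chr9:36767623-36767822, minus strand): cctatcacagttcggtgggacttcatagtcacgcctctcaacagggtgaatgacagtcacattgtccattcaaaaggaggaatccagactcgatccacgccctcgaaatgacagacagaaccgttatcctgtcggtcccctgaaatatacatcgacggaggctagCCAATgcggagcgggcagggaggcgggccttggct
Hsd17b12 (chr2:94157910-94158109, minus strand): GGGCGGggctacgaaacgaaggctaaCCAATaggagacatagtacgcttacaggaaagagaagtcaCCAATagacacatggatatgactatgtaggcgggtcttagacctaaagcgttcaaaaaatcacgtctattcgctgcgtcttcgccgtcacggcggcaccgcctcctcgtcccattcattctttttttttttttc
The 3 of the 5 weakest regions that lay at a start with a listed promoter are shown in the same way for contrast.
Tmem26 (chr10:68723546-68723745, plus strand): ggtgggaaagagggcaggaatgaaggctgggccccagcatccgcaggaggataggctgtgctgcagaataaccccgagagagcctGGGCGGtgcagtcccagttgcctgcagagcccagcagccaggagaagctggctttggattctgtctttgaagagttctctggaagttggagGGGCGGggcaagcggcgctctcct
Prr18 (chr17:8340206-8340405, plus strand): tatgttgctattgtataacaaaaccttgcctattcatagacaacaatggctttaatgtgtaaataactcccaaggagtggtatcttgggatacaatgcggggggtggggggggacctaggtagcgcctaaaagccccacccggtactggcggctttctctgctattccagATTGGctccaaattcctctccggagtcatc
Spata32 (chr11:103218433-103218632, minus strand): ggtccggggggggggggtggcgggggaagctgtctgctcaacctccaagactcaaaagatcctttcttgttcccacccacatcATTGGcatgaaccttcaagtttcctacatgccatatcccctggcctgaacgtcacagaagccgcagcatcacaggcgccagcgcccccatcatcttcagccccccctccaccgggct
All 8 strong promoters held at least 1 NF-Y box in these 200 bases and 6 of them held 2 or more. Arrdc4 and Eif2ak3 each held 4, Msmo1 held 3, and Evi5l, Pja2 and Hsd17b12 held 2. In the promoter of Arrdc4, which encodes an alpha-arrestin, the leftmost bases of the boxes stood at −170, −113, −83 and −52 from the gene start. Of the 3 weak promoters, 2 held 1 box and Tmem26 held none.

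These 8 genes have varied roles. Qdpr encodes the reductase that recycles tetrahydrobiopterin, Msmo1 a methylsterol monooxygenase of cholesterol synthesis, and Hsd17b12 an enzyme of fatty acid elongation. Eif2ak3 encodes PERK, the kinase that senses stress of the endoplasmic reticulum, and Stt3a the catalytic subunit of an oligosaccharyltransferase that glycosylates proteins there. Pja2 encodes a RING ubiquitin ligase and Evi5l a GTPase-activating protein for Rab proteins. The fold enrichment of the Msmo1 region was 16.0 and 17.0 in mutants 1 and 2, against 16.5 and 16.0 in controls 1 and 2. The fold enrichment at Eif2ak3 was 14.7 and 14.3 in the mutants and 15.2 and 15.2 in the controls. These regions lay above the 99th percentile of each list, which follows from their choice by the lowest percentile over the 4 libraries.

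The remaining 2 of the 10 strongest regions were those of Zbtb20 and Lars2. The region at the start of Zbtb20, a zinc finger transcription factor gene, had fold enrichments of 11.4 and 10.9 in the mutants, against 11.2 and 10.5 in the controls. By fold enrichment among regions with a peak in every library, it ranked only at 89.5 and 83.7 in the mutants and at 85.2 and 87.2 in the controls. The region of Lars2, which encodes the mitochondrial leucyl-tRNA synthetase, lay at the far end of the gene and was 515 bp wide. Its fold enrichment was 25.8 and 26.8 in the mutants and 27.6 and 23.8 in the controls, above that of the 9 other regions in every library. The region was not compared with a list of places prone to artefactual signal, so whether it is one of them was not tested. The 5 weakest regions were those of Tmem26, Amotl1, Prr18, Npbwr1 and Spata32, and each owed its place to control 2, the library with the shortest list. At Tmem26, which encodes a transmembrane protein, the percentile was 53.7 in mutant 1 and 18 in mutant 2, against 17.7 in control 1 and 0.150 in control 2.

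The lists held 29217 and 31821 peaks on chromosomes 1 to 19 and X in mutants 1 and 2, against 30225 and 22959 in controls 1 and 2. Read depth is unknown, since the lists hold no read counts, and the shorter list of control 2 lowers percentiles taken within it. The selected regions took up 26.9% and 24.7% of the mutant lists and 26% and 34.2% of the control lists. Each selected region holds a peak in every list by rule, so these shares mainly follow the length of the list. Among lists of marker genes, all 15 mesenchyme markers had a peak within 1 kb of a gene end in at least 1 library. Such a peak was found at 9 of 15 epithelial, 8 of 15 neuron, 4 of 10 glial, 6 of 14 skeletal muscle, 4 of 12 endothelial and 2 of 12 blood and immune markers, where 57.6% of all protein-coding genes had one. A selected region was found at 8 of the mesenchyme, 3 of the epithelial, 7 of the neuron, 2 each of the glial, muscle and endothelial, and 1 of the blood and immune markers. Over all protein-coding genes that share was 35.9%. Those of the other cell types included the epithelial genes Jup, Cdh1 and Epcam, the endothelial genes Cldn5 and Kdr and the myeloid gene Spi1. Among the neuron markers with one were Syt1, Elavl4, Map2 and Isl1. The 7 neuron regions had a median lowest percentile of 82.4, against 58.9 for the 8 mesenchyme and 22.3 for the 3 epithelial regions. That of all selected regions was 70.9. No peak within 1 kb was found at the keratin genes Krt5 and Krt14, the endothelial gene Pecam1 or the leukocyte gene Ptprc. An open promoter is not expression, and the part of other cell types in the pools was not tested.

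The selected regions had a median joined width of 1247 bp, from 509 to 1999 bp, with quartiles at 1068 and 1466 bp. Their midpoints lay at a median of 190 bp from the gene end, and 81.3% of the midpoints were inside the gene. Width and distance were set by the rule and are given as a description. Of 8196 shared regions near exactly 1 gene, 373 were left out for a width of 2000 bp or more. Just inside this limit were Zfpm2 and Impa2, each 1999 bp wide, and Xkr4 at 1998 bp. Just outside it were Cpne8 and Stk35, each 2000 bp wide, and Rap2b at 2001 bp. By distance, the regions of Tex2, Apc and Zmym2 were just inside, at 999, 997 and 996 bp, and those of Scgb1a1, Polr3gl and Vldlr just outside, at 1001, 1001 and 1003 bp. Regions that met the other conditions but held a peak in fewer libraries numbered 651 with 3 libraries, 474 with 2 and 569 with 1.

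The strand was known for 6268 of the 7823 regions, or 80.1%. Most of the regions lay at gene starts. The midpoint was within 1 kb of the start alone in 6127 regions, or 78.3% of all, of the far end alone in 107, or 1.37%, and of both ends of a short gene in 34. The other 1555 regions were at genes with no strand in the table. An annotated start lay inside the region in 96.2% of the regions at a start and in 1 of those at a far end. Regions at a start were also the stronger ones. Their lowest percentile had a median of 72.2 and was 50 or more in 77.3%, whereas at far ends the median was 45.4 and 39.3% reached 50. The median fold enrichment of regions at a start was 8.64 and 8.98 in the mutants, against 9.19 and 8.32 in the controls. At far ends it was 6.73 and 6.89 in the mutants, against 7.40 and 6.42 in the controls, so that each library gave the lower value at far ends. The lowest percentile was 80 or more in the 8 strongest far-end regions, which were picked out after their values were seen. They include Lars2, Fhl3, a LIM-domain gene, Bcat2, which encodes the mitochondrial branched-chain aminotransferase, and Sncb, the gene of beta-synuclein. Of the 61 genes with 2 selected regions, 45 had 1 at the start and 1 at the far end.

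In each library the summits, the authors' points of highest signal within a peak, gathered around the gene start. Regions at a start were chosen for a midpoint within 1 kb of it and a width under 2000 bp, which bounds this distance. How far the gathering follows from that choice was not tested. The median summit of the 6127 regions at a start lay 45 bp inside the gene in mutants 1 and 2, against 45 bp in control 1 and 50 bp in control 2. The share of summits within 250 bp of the start was 80.9% and 81.2% in the mutants and 81.3% and 80.3% in the controls. The difference of 0.253 percentage points between the genotype means was below the spread of the control libraries (exact permutation test, two-sided, p = 1). With 2 libraries per genotype this test cannot give a p under 0.33. Peaks reached further into the gene than away from it, with a median of 688 and 696 bp of peak downstream of the start in the mutants and 691 and 678 bp in the controls. Upstream of the start the peaks reached 379 and 384 bp in the mutants and 378 and 379 bp in the controls. The gene table gives the outermost start of a gene, which places other starts of the same gene inside it. At the 2826 genes with 1 annotated start, the median summit lay 4.5 and 4 bp inside the gene in the mutants, against 6 and 7 bp in the controls, and 89.0% and 89.3% of the summits in the mutants and 89.5% and 88.8% in the controls were within 250 bp.

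**Figure D1:**
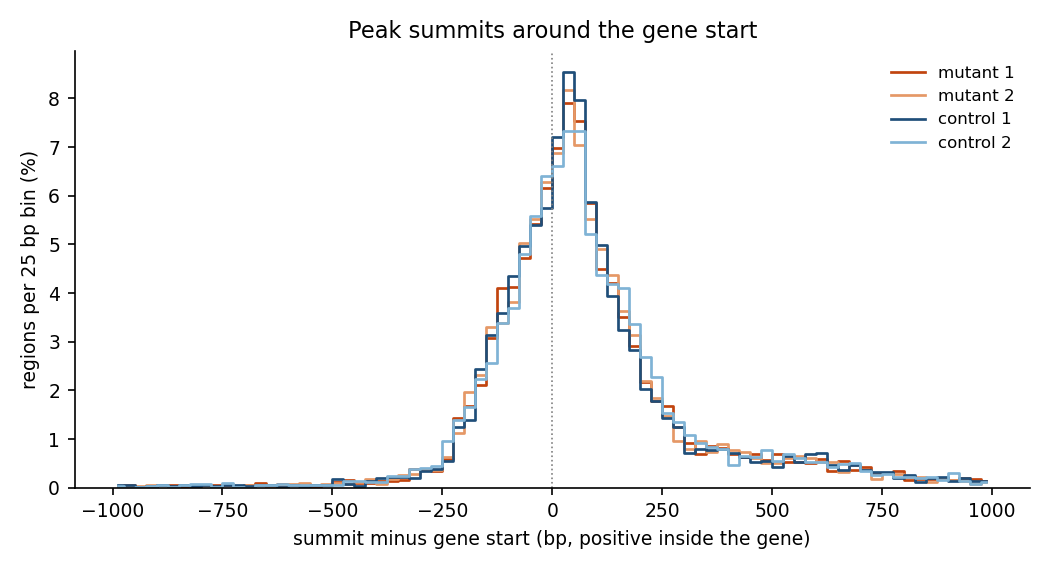
Distance of the peak summit from the gene start (x axis, in bp, positive inside the gene) for the 6127 regions at a start, as the percentage of regions per bin of 25 bp (y axis), with 1 line per library. The 4 lines overlie each other and peak between 0 and 100 bp inside the gene.

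The position of the summit was also shared between libraries region by region. The median distance between the summits of the same region was 35 bp for the mutant pair and 45 bp for the control pair, and 36 to 45 bp for the 4 pairs of 1 mutant and 1 control. The summits of all 4 libraries fell within a stretch with a median of 91 bp, which was at most 50 bp in 23.7% of the regions and over 300 bp in 4.55%. Summits lay closer to the start and to each other as the regions became stronger. From the weakest to the strongest quintile by lowest percentile, the median stretch was 140.5, 110, 93, 76 and 60 bp. In the same order the median summit in mutant 1 stood at +95, +73, +48, +32 and −11.5 bp, where positive positions are inside the gene, and in control 1 at +94.5, +66, +45, +36 and −8 bp. In the strongest quintile the median summit was thus just upstream of the start, with summits on both sides of it. The region of Rmnd5a, a gene of a ubiquitin ligase complex, had its summit at −88 bp in all 4 libraries, that of Zfp869 at +107 bp and that of Phlpp1, a protein phosphatase gene, at −378 bp. Among the strongest 10%, these 3 regions were named for the exact agreement of their summits.

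The selected regions were stronger than other regions that held a peak in every library. The median percentile of the selected regions was 78.2 and 80.0 in mutants 1 and 2, against 79.1 and 72.3 in controls 1 and 2. For the other 11081 shared regions it was 59.8 and 63.0 in the mutants, against 60.8 and 48.6 in the controls. The difference was 18.3 and 17.0 points in the mutants and 18.3 and 23.7 points in the controls, a mean of 19.3 ± 2.96 (SD, n = 4 libraries), and had the same sign in 4 of 4 libraries (exact sign-flip test, two-sided, p = 0.13, the smallest that 4 libraries allow). Their lead was 20.6 points over regions inside genes and 24.7 points over regions between genes up to 100 kb away. Against the 1369 shared regions near ends of 2 or more genes the difference was −4.67 points on average, with the same sign in 4 of 4 libraries. The lowest percentile was 50 or more in 5909 of the 7823 selected regions, or 75.5%, against 44.5% of the other shared regions. It was under 10 in 1.66%, against 7.80%. The end of a noncoding gene lay within 1 kb of 15.6% of the selected regions and of 10.6% of the others.

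**Figure D2:**
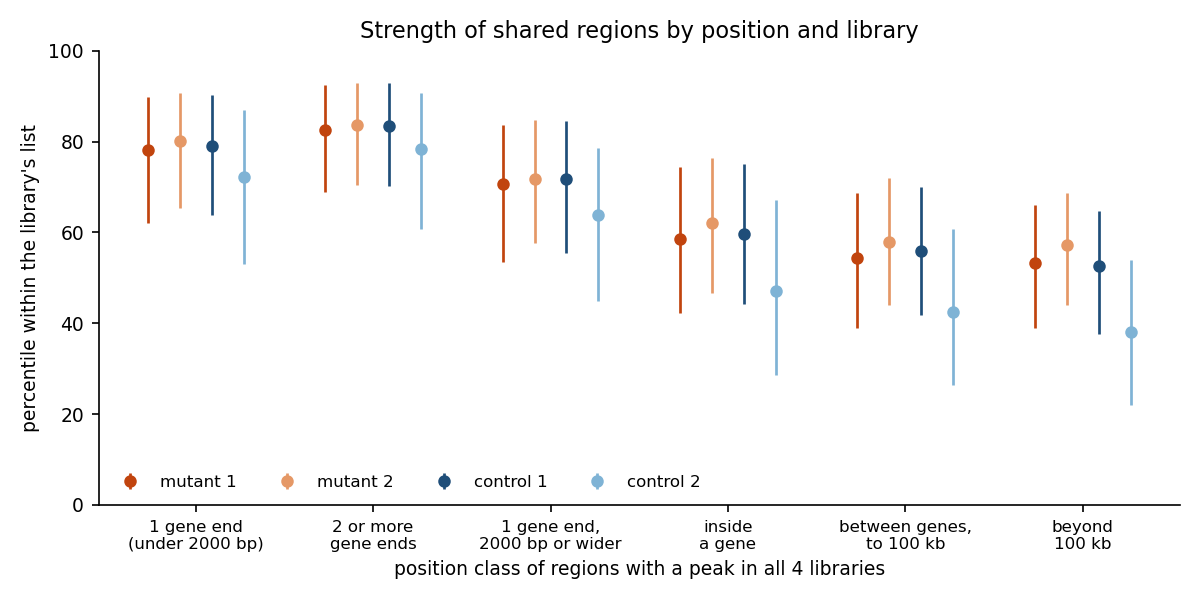
Percentile of the strongest peak within the list of each library (y axis) for regions with a peak in all 4 libraries, by position class (x axis). The class labelled as 1 gene end, 2000 bp or wider, holds all 638 shared regions of that width at any position. Of these, 373 were near exactly 1 gene. Points are medians and lines run between the quartiles, with mutant 1, mutant 2, control 1 and control 2 from left to right in each class. Regions at 1 gene end have medians of 72.3 to 80.0, above those inside or between genes and below those near 2 or more gene ends.

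The genotypes did not differ beyond the spread between libraries in the fold enrichment or −log10 p of the selected regions. Their median fold enrichment was 8.49 and 8.84 in the mutants, against 9.05 and 8.24 in the controls, so that both mutant values lay between the control values. Genotype means were 8.67 ± 0.246 in mutants and 8.64 ± 0.573 in controls (SD, n = 2 each; exact permutation test, two-sided, p = 1). The median −log10 p was 59.3 and 65.1 in the mutants and 67.4 and 42.3 in the controls, a difference of means of 7.41 (exact permutation test, p = 1). The median peak width was 1093 and 1112 bp in the mutants, against 1101 and 1079 bp in the controls, a difference of 12.5 bp, which is given without a test because the rule bounds the width. A p of 1 does not show that the genotypes were alike, because none under 0.33 was possible.

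The order of the selected regions by strength was similar in every pair of libraries. Spearman's rank correlation across the 7823 regions was 0.956 for the mutant pair and 0.944 for the control pair, and it ran from 0.942 to 0.955 for the 4 pairs of unlike genotype. Across the other shared regions the correlation was 0.893 for the mutant pair and 0.875 for the control pair, and 0.858 to 0.886 for the unlike pairs. These are descriptions across regions of the same lists, with the length of the list and the sequence of each region in common. The control pair was thus less alike in order than mutant 1 and control 1, whose correlation was 0.955.

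To set genotypes side by side, each region was ranked among the same 18904 shared regions in each library, from 0 for the weakest to 100 for the strongest. Of the 7823 selected regions, 1283, or 16.4%, ranked higher in both mutants than in both controls, where 17.6% of all shared regions did so. Lower in both mutants were 1434, or 18.3%, against 18% of all shared regions. Both shares were close to this background and are no result about regions at gene ends. Gaps of more than 10 points between the genotypes were found in 88 selected regions in favour of the mutants, or 1.12%, and in 131 in favour of the controls, or 1.67%. Among all shared regions these shares were 2.31% and 2.20%. When regions were ranked by fold enrichment instead, 923 of the 1283 and 1030 of the 1434 were again higher or lower in both mutants.

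The widest gaps in favour of the mutants were at Dlc1, Kcnk12, Pclaf, Ddx23, Mks1 and Niban2. They were chosen for this gap, so their values are a description with no test. The region of Dlc1, which encodes a GTPase-activating protein, ranked at 57.0 and 64.3 in the mutants, against 31.4 and 33.9 in the controls. Its fold enrichment was 7.61 and 8.43 in the mutants and 6.27 and 6.07 in the controls. The region at the start of Pclaf, the gene of a PCNA-associated factor of dividing cells, ranked at 44.3 and 49.9 in the mutants and at 25 and 4.82 in the controls. At Ddx23, which encodes a helicase of the spliceosome, the ranks were 63.2 and 65.7 in the mutants and 43.6 and 44.0 in the controls. Mks1, a ciliary gene, and Niban2 had gaps of 18.4 points each, and Kcnk12, a potassium channel gene whose region lay at its far end, one of 21.0 points.

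The widest gaps in the other direction were at Peli2, Htr7, Akr1e1, Nrarp, Ssr2 and Rpap3. Peli2, which encodes a ubiquitin ligase of Toll-like receptor signalling, ranked at 7.49 and 6.04 in the mutants, against 45.6 and 48.8 in the controls, with fold enrichments of 4.17 and 4.28 in the mutants and 7.02 and 5.85 in the controls. Htr7, a serotonin receptor gene, ranked at 9.94 and 11.9 in the mutants and at 48.6 and 64.3 in the controls. Akr1e1, an aldo-keto reductase gene, ranked at 24.2 and 17.2 in the mutants and at 65.3 and 59.9 in the controls. Nrarp, a target and inhibitor of Notch signalling, ranked at 9.84 and 4.23 in the mutants and at 39.8 and 51.4 in the controls. Its fold enrichment was 4.20 and 4.10 in the mutants, against 6.15 and 6.43 in the controls. The gap was 28.8 points at Ssr2, which encodes a subunit of the translocon-associated protein complex, and 25.8 points at Rpap3, a cochaperone gene. All 12 regions kept their order between the genotypes when ranked by fold enrichment. The promoters of 4 of them are shown, chosen because their 200 bases held a match to a motif searched.
Pclaf (chr9:65890123-65890322, plus strand): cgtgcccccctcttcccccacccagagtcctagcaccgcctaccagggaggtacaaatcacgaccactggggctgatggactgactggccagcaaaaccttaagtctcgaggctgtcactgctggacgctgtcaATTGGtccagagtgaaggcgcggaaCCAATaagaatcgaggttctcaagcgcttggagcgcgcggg
Peli2 (chr14:48120669-48120868, plus strand): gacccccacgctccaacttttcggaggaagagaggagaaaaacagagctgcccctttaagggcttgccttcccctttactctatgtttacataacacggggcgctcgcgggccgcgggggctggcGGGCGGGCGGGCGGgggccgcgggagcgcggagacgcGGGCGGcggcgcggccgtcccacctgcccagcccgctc
Akr1e1 (chr13:4609165-4609364, minus strand): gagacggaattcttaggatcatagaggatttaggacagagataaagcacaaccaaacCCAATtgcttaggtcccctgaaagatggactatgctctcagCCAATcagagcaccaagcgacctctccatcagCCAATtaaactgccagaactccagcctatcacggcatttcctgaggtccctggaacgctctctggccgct
Nrarp (chr2:25180558-25180757, plus strand): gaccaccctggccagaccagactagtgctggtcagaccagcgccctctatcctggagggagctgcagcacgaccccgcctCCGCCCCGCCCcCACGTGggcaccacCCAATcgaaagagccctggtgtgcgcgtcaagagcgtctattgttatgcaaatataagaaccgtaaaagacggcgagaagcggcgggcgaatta
Pclaf held 2 NF-Y boxes and Akr1e1 held 3, Nrarp held 1 together with 2 GC boxes, and Peli2 held 4 GC boxes and no NF-Y box. Of the promoters shown, 3 had regions that ranked lower in the mutants, and no motif was found in all 3. The same 200 bases of Mks1, Niban2, Htr7 and Rpap3 held no match to any of the 9 motifs searched.

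**Figure D3:**
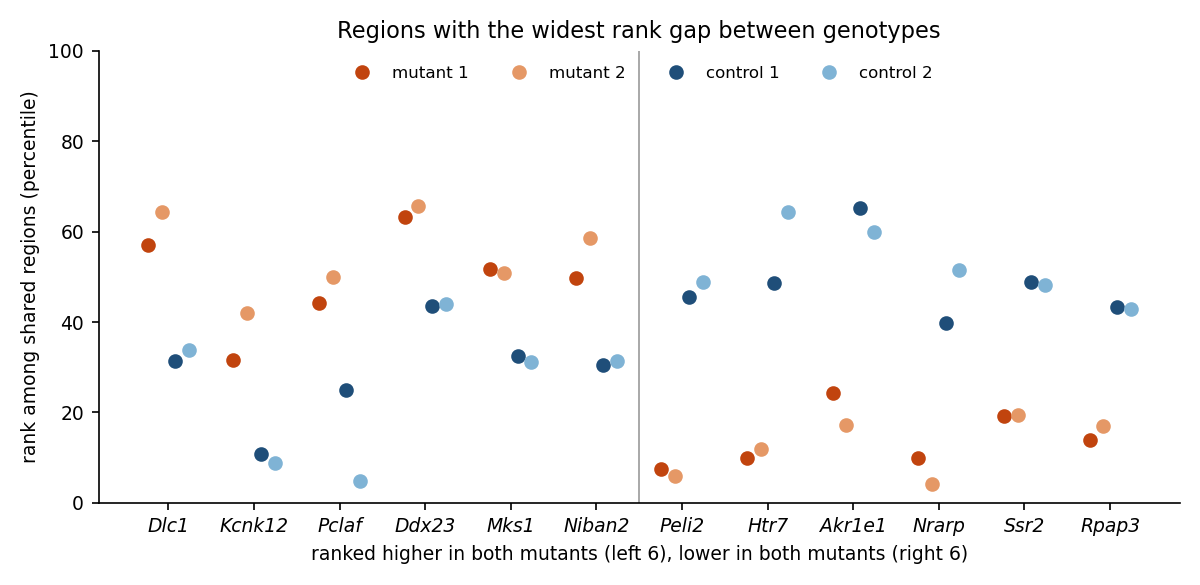
Rank among the 18904 shared regions (y axis, percentile, 100 is the strongest) of the 12 regions with the widest gap between genotypes (x axis), with mutant 1, mutant 2, control 1 and control 2 from left to right at each gene. The regions were chosen for this gap, and Peli2 has the widest, with 7.49 and 6.04 in the mutants and 45.6 and 48.8 in the controls.

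Shox2 had no region within 1 kb of its ends. Nkx2-5, a homeobox gene that both genotypes carry in floxed form, had a selected region at its far end, 844 bp from that end by midpoint. It ranked at 39.5 and 34.7 in the mutants, against 4.54 and 23.3 in the controls. Its summits in the 4 libraries lay within 108 bp. How much of the floxed locus remained in either genotype cannot be read from peaks.

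By gene function, selected regions were most frequent in the lists of ribosomal protein and proteasome genes. Of all 21631 protein-coding genes, 35.9% had such a region. Of the rest, 495 had a broader region, with or without other regions, and 2564 had shared regions only at an end shared with another gene. A further 1638 had only peaks in fewer than 4 libraries, and 9172 had no peak within 1 kb of either end. Of 25 listed ribosomal protein genes 20 had a selected region, or 80%, and of 30 proteasome subunit genes 22, or 73.3%. The region of Psmd14, the deubiquitinase of the proteasome lid, had fold enrichments of 12.9 and 12.7 in the mutants, against 14.8 and 11.9 in the controls. That of Rpsa, of the small ribosomal subunit, had 11.1 and 12.1 in the mutants, against 12.6 and 10.8 in the controls, and the genotypes overlapped at both genes. Of 28 genes of DNA replication and the cell cycle 17 had one, led by Mcm3, of the replicative helicase, with fold enrichments of 15.2 and 16.1 in the mutants and 16.6 and 14.2 in the controls. Of 27 chromatin regulators 17 had one, among them Ezh2, the methyltransferase of Polycomb complex PRC2, and the deacetylase gene Hdac2. Respiratory chain genes differed: 11 of 28 had a selected region, and 14 had their open region at an end shared with another gene, which the rule leaves out. Splicing factor genes were similar, with a selected region at 12 of 26 and a shared end at 9.

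Genes of developmental signalling also often had a selected region. The counts were 20 of 29 for BMP and TGF-beta, 13 of 19 for FGF, 11 of 17 for hedgehog and 13 of 27 for WNT. Gsk3b, the kinase that marks beta-catenin for destruction, ranked at 99.5 and 99.5 in the mutants and at 99.7 and 99.6 in the controls. Etv5, an ETS factor induced by FGF, ranked at 97.7 and 97.3 in the mutants and at 95.9 and 97.3 in the controls. Tgfbr1, the type I TGF-beta receptor, ranked at 95.4 and 95 in the mutants and at 96.7 and 92.6 in the controls. These ranks are by −log10 p, and each was lower by fold enrichment. By that measure Gsk3b ranked at 69.6 and 65.0 in the mutants and at 64.8 and 73.2 in the controls. Etv5 ranked at 88.6 and 82.5 in the mutants and at 74.9 and 85.8 in the controls, and Tgfbr1 at 80.4 and 71.4 against 83.4 and 72.2. Of 29 extracellular matrix genes 15 had a selected region, with a median lowest percentile of 56.1, where that of all selected regions was 70.9. Col1a2, a chain of type I collagen, ranked at 70.3 and 68.5 in the mutants and at 69.8 and 63.0 in the controls.

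Palate transcription factors had the lowest share of the 12 functional lists, with a selected region at 9 of 40 genes, or 22.5%. These were Msx1, Osr2, Tbx3, Meox2, Mn1, Foxf1, Foxd2, Gli2 and Nkx2-5. A further 11, among them Prrx1, Osr1, Tbx2 and Foxf2, had peaks in fewer than 4 libraries, 3 (Twist1, Foxd1 and Gli3) a broad region, 1 an end shared with another gene, and 16 no peak within 1 kb of an end, among them Pax9. The gene table gives outermost ends only, so a region at an internal start more than 1 kb from them is not counted. The regions of these transcription factors were also of moderate strength by −log10 p, with a median lowest percentile of 58.7. By fold enrichment they looked weaker. The 4 with the highest lowest percentile, Gli2, Osr2, Foxd2 and Tbx3, ranked between 6.74 and 40.6 by fold enrichment among shared regions over the libraries. Osr2, which is needed for growth of the palatal shelves in mice, had fold enrichments of 5.23 and 5.89 in the mutants, against 6.09 and 5.19 in the controls. Gli2, a transcriptional effector of hedgehog signalling, had fold enrichments of 5.55 and 5.08 in the mutants and 6.19 and 6.85 in the controls.

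**Figure D4:**
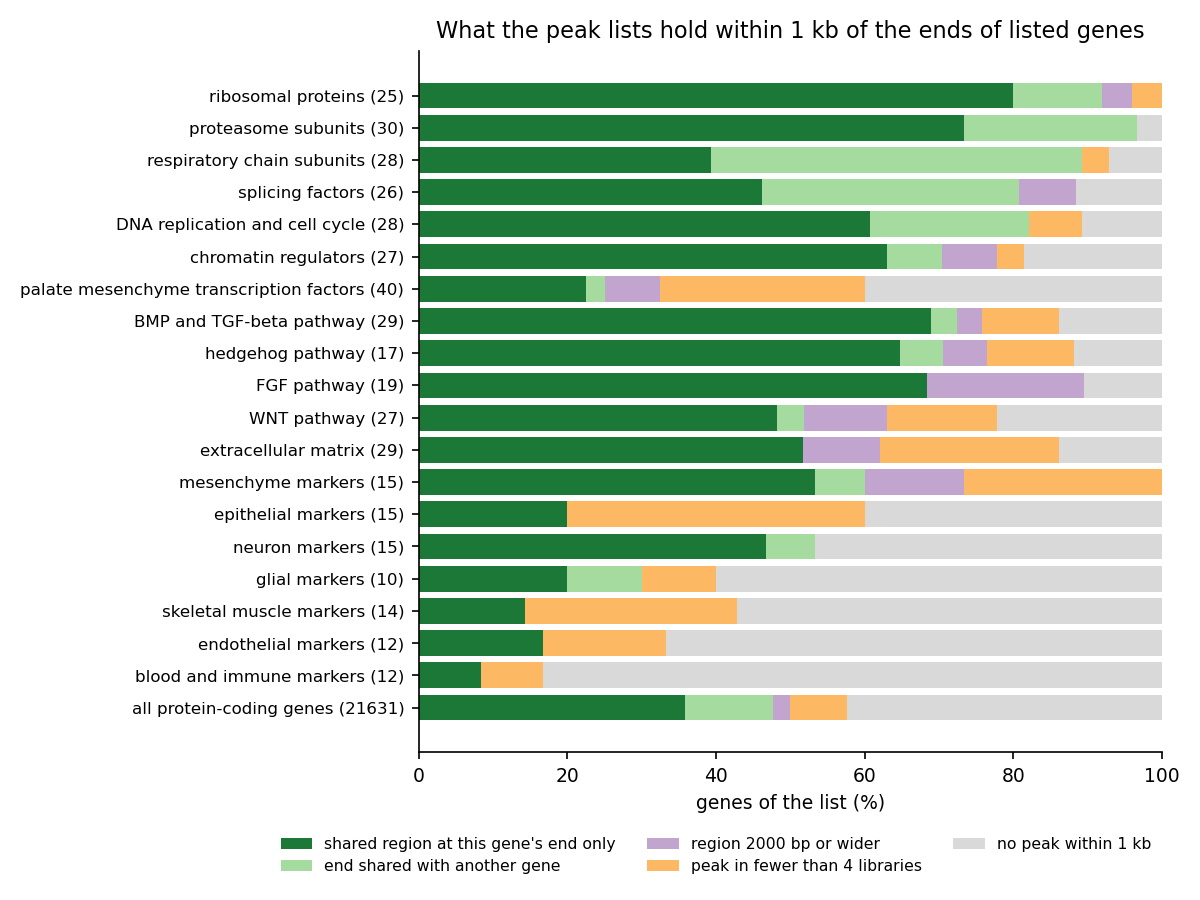
Percentage of genes (x axis) in each fixed gene list (y axis, with the number of genes) by what the peak lists hold within 1 kb of the gene's ends, and the same for all 21631 protein-coding genes. Ribosomal proteins have the highest share of selected regions, 80%, palate transcription factors have 22.5%, and all genes 35.9%.

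Within the lists, the order of the genotypes varied from gene to gene. Of the 20 regions of BMP and TGF-beta genes 7 ranked higher in both mutants and 2 lower, beside 17.6% and 18% of all shared regions. The 7 were named after their values were seen: the receptor genes Bmpr1b and Tgfbr3, the signal transducers Smad1 and Smad3, the inhibitor Smad7, and Id2 and Id4, which encode inhibitors of helix-loop-helix factors. The ranks of Id2 were 76.0 and 69.3 in the mutants, against 54.2 and 60.8 in the controls, and those of Id4 were 89.1 and 82.7 in the mutants, against 76.4 and 80.9 in the controls. The 2 lower ones were Acvr2a, with 80.2 and 79.1 in the mutants and 81.4 and 80.7 in the controls, and Tgfbr2, with 32.5 and 41.4 in the mutants and 46.0 and 56.6 in the controls. Several of these gaps were small. Of the 20 ribosomal protein regions 6 ranked higher in both mutants and 2 lower, of the 13 FGF regions 1 and 3, of the 11 hedgehog regions 1 and 2, and of the 9 palate transcription factor regions 1 (Nkx2-5) and 2 (Msx1 and Gli2). Msx1 ranked at 34.1 and 34.3 in the mutants, against 52.6 and 55.9 in the controls. Of the other functional lists, replication and cell cycle genes had 4 higher and 4 lower, WNT genes 4 and 3, chromatin regulators and proteasome genes 2 and 3 each, and respiratory chain, splicing and matrix genes 1 and 1 each. Among the marker lists, 3 of the 7 neuron regions and 1 of the 3 epithelial regions ranked higher in both mutants, and 1 each of the 8 mesenchyme, 2 glial and 2 endothelial regions ranked lower. None of these counts was tested.

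Promoters of the selected regions were richer in CpG than those of genes without a peak. Promoter windows of 300 bases, from 250 before the start to 50 from it, were available for 5878 regions that held the start. The ratio of observed to expected CpG in them had a median of 0.783, and 78.1% reached 0.6. Over all 17274 genes with a window the median was 0.586 and 49.0% reached 0.6. At the 6525 genes with no peak over the start in any library the median was 0.188, and 7.98% reached 0.6. Among the selected regions the median was 0.713, 0.765, 0.803, 0.798 and 0.818 from the weakest to the strongest quintile. The share that reached 0.6 was 65.3%, 75.1%, 81.5%, 80.9% and 87.7% in the same order, so that the weakest quintile was the poorest in CpG by both measures. The genes of the selected regions were also longer, with a median of 27916 bp, against 17329 bp for all genes and 9742 bp for genes with no peak near an end.

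Motif content followed 3 courses. The GC box GGGCGG was found in 71.4% of the selected windows, against 46.9% of all windows and 14.4% of those without a peak. The ETS core CGGAAG was found in 31.6%, against 21.8% of all windows and 6.94% of those without a peak. The palindromic CRE TGACGTCA, at 3.76%, half-site GCGCATGC of NRF1, at 6.40%, YY1 core AAGATGGC, at 4.59%, and E-box CACGTG, at 10.8%, were likewise more frequent than in all windows, where they were found in 2.36%, 3.64%, 3.23% and 8.01%. The TATA box TATAAA went the other way, with 6.11% of the selected windows, 13.4% of all windows and 24.5% of those without a peak, and so did the AP-1 site TGANTCA, with 3.86%, 7.09% and 11.8%. At least 1 NF-Y box was found at nearly equal shares, in 41.0% of the selected windows, 39.6% of all windows and 40.4% of those without a peak. Windows with 2 or more boxes differed more, at 16.7%, 13.6% and 11.1% in the same order, and those with 3 or more were 5.92%, 4.21% and 2.31%. The letters of the box in reverse order, which have the same base composition, ran the other way, at 20.8%, 24.5% and 28.9%. Both strands were searched, and an ETS core may share letters with the end of a GC box. The windows also differed in base composition. Their median GC content was 62% in the selected windows, 56.3% in all windows and 47.3% in those without a peak. Reversed letters were counted for the NF-Y box only, so how far the other motif shares follow from composition was not tested.

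Among the selected regions, however, the NF-Y box was the motif whose share changed most with strength. From the weakest to the strongest quintile it was found in 31.1%, 30.7%, 38.2%, 46.8% and 58.3% of the windows. Windows with 2 or more boxes made up 8.16%, 7.83%, 13.4%, 19.8% and 34.5%, and those with 3 or more 2.13%, 1.45%, 4%, 6.55% and 15.5%. The reversed letters were found in 20.4%, 20.9%, 21.3%, 20.3% and 21.3%, with no such course. The GC box ran from 64.5% in the weakest to 79.7% in the strongest quintile, and the ETS core from 24.5% to 36.6%. The E-box, at 10.3% and 9.86%, and the NRF1 half-site, at 5.02% and 5.36%, differed little between these quintiles.

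**Figure D5:**
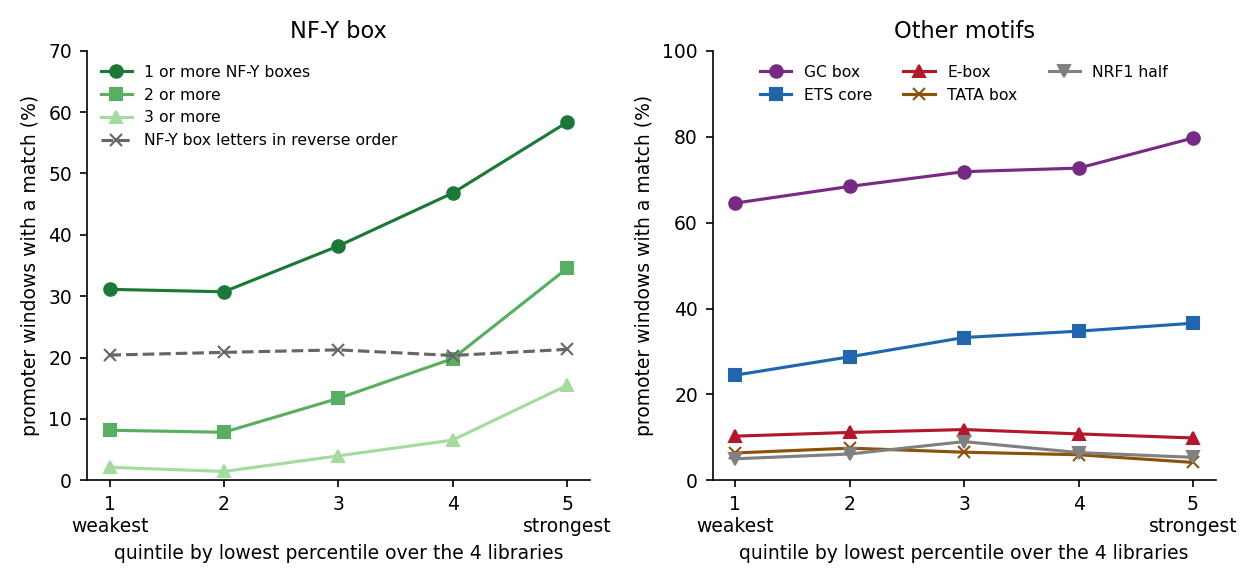
Percentage of promoter windows of 300 bases with a match on either strand (y axis) by quintile of the selected regions, from weakest to strongest by lowest percentile over the 4 libraries (x axis). On the left, windows with 1 or more NF-Y boxes go from 31.1% to 58.3% while the same letters in reverse order stay at 20.3% to 21.3%; on the right are 5 other motifs.

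The course of the NF-Y box was the same in each library. The same windows were ordered each time, and the libraries order the regions much alike, so these shares are not independent of each other. When the regions were ordered within a library, the strongest quintile held the box in 58.7% and 59.2% of the windows in mutants 1 and 2, against 58.8% and 58.2% in controls 1 and 2. In the weakest quintile the shares were 32.0% and 31.1% in the mutants, against 31.0% and 31.7% in the controls. In order of fold enrichment the quintiles held 31.5%, 32.8%, 33.9%, 46.7% and 60.2%. The increase was present in windows with a CpG ratio of 0.6 or more, from 27.3% to 57.0%, and in those below it, from 38.2% to 67.6%. The centres of the boxes stood at a median of −83 bp, and those of GC boxes at −57.5 bp, ETS cores at −39 bp and YY1 cores at +15.5 bp. Neighbouring NF-Y boxes of a window were a median of 45 bp apart, and 698 of 1490 such pairs, or 46.8%, were 20 to 50 bp apart, as between the neighbouring boxes of Akr1e1 shown above. These median positions and spacings were taken in the selected windows only, so whether they differ from those in other windows was not tested. A match is a sequence feature, and binding of NF-Y was not measured.

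Across chromosomes the selected regions covered between 25.3% of the genes of chromosome 7 and 42.5% of those of chromosome 3. The 288 regions of the X chromosome had median fold enrichments of 9.57 and 9.81 in the mutants and 9.94 and 8.99 in the controls. Those of the 7535 autosomal regions were lower, at 8.45 and 8.79 in the mutants, against 9 and 8.20 in the controls. By −log10 p the order was the reverse in each library, with median percentiles of 75.1 and 78.0 on X and 78.3 and 80.1 on autosomes in the mutants, against 76.3 and 68.8 on X and 79.1 and 72.4 on autosomes in the controls. The 2 deposited measures of strength thus disagree on whether these X-linked regions were the stronger ones.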

How the data were processed

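The authors deposited 1 list of ATAC-seq peaks per library, in the layout of narrowPeak files, with a fold enrichment (a ratio whose background is not given), a −log10 p-value, a −log10 q-value, a score and a summit for each peak. These are the authors' own values and serve here to describe or rank peaks. Per the submitters' processing notes, the build is mm10. Aligner, peak caller, settings and transposase shift: not given in the sources used here. Peak lists hold no read counts and hence no depth, and values carry no counting error.

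Of the deposited peaks, 114222 on chromosomes 1 to 19 and X were joined where peaks of any libraries overlapped by 1 bp or more, and 40 on chromosome Y were left out. Gene ends came from a RefSeq table of GRCm38.p6, and strand and promoter sequence from a RefSeq promoter table of the same build, which matched 6219 of the 7762 genes. Where a library had 2 peaks in a region, in 155 of 31292 cases, the stronger was used. No list of regions prone to artefactual signal was used. Percentiles are within a library's list, and ranks are among shared regions. Genotypes were compared by exact permutation tests on library medians and an exact sign-flip test over libraries, both two-sided, and the scripts were tested on simulated peaks. Motif shares, gene lists (12 functional and 7 of cell type markers, 405 genes in all) and rank orders are descriptions without a test. Genes were named by rule: Shox2 and Nkx2-5, the 10 strongest and 5 weakest regions, up to 4 strongest per list, 6 per direction by rank gap, 3 on each side of each limit, and 3 by summit agreement. The regions, the lists and the rule were chosen with earlier results of these data known. The analysis used Python 3.11.15 with numpy 2.4.6, pandas 2.3.3, scipy 1.17.1 and matplotlib 3.10.9. The alternatives tried are given in the closing section.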

Additional observations from a re-analysis of the deposited data

How the results depend on the processing

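The number of selected regions, 7823, stayed within 1.5 times under every alternative tried, from 5915 in the upper 50% of each list to 8193 with a width limit of 3000 bp, and from 7954 to 8245 when 1 library was left out. The share ranked lower in both mutants was 18.3% and became 17.1% in the upper 50% of each list. With 1 library left out, the shares ranked higher or lower were 31.5% to 33.9% and 33.8% to 36.8%, because fewer libraries then have to agree. The genotype difference of the median fold enrichment, 0.0234, ran from −0.382 without control replicate 2 and −0.150 without mutant replicate 2 to 0.429, and that of the median −log10 p, 7.41, from −5.11 without control replicate 2 to 19.9, so their signs rest on single libraries. With the replicate number as a block (replicate block, an exact paired sign-flip test) the differences in fold enrichment and −log10 p were the same 0.0234 and 7.41, each with p = 1, where 2 pairs allow none under 0.5. Nothing in the labels says that equal numbers pair libraries. The lead in percentile over other shared regions, 19.3, was 16.8 by fold enrichment. The share of summits within 250 bp of the start, 80.9%, was 67.3% for peak centres and 83.6% for widths under 1500 bp. In a window of 100 bases before and 50 from the start, the NF-Y box was found in 27.9% of the windows and in 44.4% of the strongest quintile, the GC box in 61.6%, the ETS core in 23.4%, the E-box in 6.74%, the NRF1 half-site in 4.73%, the YY1 core in 3.71%, the CRE in 3.05%, the TATA box in 2.31% and the AP-1 site in 1.48%. A shorter window holds fewer matches by construction. Rankings by fold enrichment, added after seeing the data, gave 16.4% higher and 17.9% lower. Unknown depth and 2 libraries per genotype limit every comparison of genotypes.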
